A study of Mus musculus with 6 samples.

Results

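The genes described here are 34 genes of the cell division cycle, taken by symbol from the 39179 rows of a table of gene expression in the mouse pylorus, the outlet of the stomach. They were listed by name and not by a cut on any measured value. Earlier results of these data were known when they and the further lists below were chosen. They were divided into 12 replication genes (Mcm2 to Mcm7, Pcna, Rrm1, Rrm2, Cdc6, Ccne1 and Ccne2) and 22 mitotic genes (all others). Each of the 34 was found, and each passed the filter on low values. The table held 3 libraries from Sox2 WT mice and 3 from Sox2 KO mice. Sox2 KO animals had CreER, a Cre recombinase that tamoxifen activates, at the Rosa26 locus, together with floxed Sox2 alleles (Sox2 fl/fl). Sox2 WT animals were also Sox2 fl/fl but had no Cre. Both groups received tamoxifen at 8 weeks of age and tissue was taken 2 weeks later. The mice were on a mixed background of C57BL/6 and 129. Rosa26 is active in most cell types, so CreER is not restricted to the epithelium, and in which cells Sox2 was deleted was not measured here. RNA came from epithelium and mesenchyme together, after the muscle layer had been taken off. Whether each library came from its own animal is not stated, and p-values then speak only of the spread among these libraries. In bulk tissue, fewer dividing cells and less RNA per dividing cell cannot be told apart.

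In a dividing cell the 2 sets of genes are transcribed in successive waves. Late in G1, cyclin E with its kinase helps to release E2F factors from the retinoblastoma protein and its relatives. E2F then drives genes that load and fire replication origins and make nucleotides, through promoter sites known as E2F sites. In G2 and mitosis a later wave of genes, for cyclin A and B, mitotic kinases, the spindle and its checkpoint, is driven by MuvB complexes with B-Myb and FOXM1. In resting cells the DREAM complex holds this wave down through promoter elements called CHR, which often lie near CCAAT boxes bound by NF-Y. In the pyloric gland, dividing cells lie in the isthmus and base and replace the mucous cells above them.

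The promoters of the 2 sets carried different letters. The promoters of 28 of the 34 genes were found in RefSeq's table for the mouse build GRCm38.p6, which gives for each start site a window from 250 bases before to 50 bases after it. Exact matches on both strands were sought for 3 kinds of element. These were the CHR (TTTGAA or TTCGAA), the CCAAT box (by its name's letters) and E2F sites (TTTGGCGC, TTTCGCGC, TTTCCCGC or TTTGCCGC). TTCGAA reads the same on both strands and was counted once. A CHR match was present in 14 of 18 mitotic genes (77.8%) and 2 of 10 replication genes (20.0%), against 21.7% of the 27025 genes in the table. The 2 replication genes with one were Mcm2 and Mcm7, and the mitotic genes without one were Birc5, Ccnb1, Cenpe and Nusap1. E2F matches showed the opposite order. They were present in 5 of 10 replication genes, namely Cdc6, Mcm3, Mcm5, Mcm6 and Mcm7, in 1 of 18 mitotic genes (5.56%), which was Cdk1, and in 2.6% of all genes in the table. The Mcm3 matches lay after the start. The windows of Cdc6 and Mcm7 lay inside the gene as GENCODE gives it, so their matches are not upstream of that gene. CCAAT boxes were common to both sets, in 16 of 18 mitotic genes (88.9%) and 8 of 10 replication genes (80.0%), against 41.1% of all. At least 1 match of each of CHR and CCAAT, at any distance, was present in 77.8% of the mitotic genes, 20.0% of the replication genes and 9.65% of all.

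The following 2 replication promoters are shown because they hold E2F matches upstream of the start, and the following 3 mitotic ones because they hold CHR and CCAAT matches there. Each is a stretch before the start site, 5′ to 3′ on the gene's strand, with the matches in it in capitals. Each runs from 250 bases before RefSeq's start up to it, except for Cdc20. Its stretch of 241 bases ends where the GENCODE gene begins and leaves out a CCAAT match nearer to RefSeq's start. The windows are chr8:75109259-75109508 (plus strand) for Mcm5, chr1:128359706-128359955 (minus strand) for Mcm6, chr4:118437353-118437593 (minus strand) for Cdc20, chr11:99024190-99024439 (minus strand) for Top2a and chr19:37376132-37376381 (plus strand) for Kif11.
Mcm5: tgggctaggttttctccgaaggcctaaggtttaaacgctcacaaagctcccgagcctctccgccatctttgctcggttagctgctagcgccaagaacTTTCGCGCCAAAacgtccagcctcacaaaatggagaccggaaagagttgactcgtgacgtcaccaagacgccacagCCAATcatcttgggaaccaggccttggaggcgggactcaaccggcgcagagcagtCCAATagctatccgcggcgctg
Mcm6: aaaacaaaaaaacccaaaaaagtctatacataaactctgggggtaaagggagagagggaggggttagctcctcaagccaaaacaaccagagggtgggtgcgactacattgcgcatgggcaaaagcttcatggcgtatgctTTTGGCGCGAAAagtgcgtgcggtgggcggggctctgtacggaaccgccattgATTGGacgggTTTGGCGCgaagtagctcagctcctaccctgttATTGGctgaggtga
Cdc20: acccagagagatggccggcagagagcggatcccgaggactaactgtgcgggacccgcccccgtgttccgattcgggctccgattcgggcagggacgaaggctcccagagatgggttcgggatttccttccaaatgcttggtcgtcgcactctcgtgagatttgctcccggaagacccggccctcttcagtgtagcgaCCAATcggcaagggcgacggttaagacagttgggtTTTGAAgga
Top2a: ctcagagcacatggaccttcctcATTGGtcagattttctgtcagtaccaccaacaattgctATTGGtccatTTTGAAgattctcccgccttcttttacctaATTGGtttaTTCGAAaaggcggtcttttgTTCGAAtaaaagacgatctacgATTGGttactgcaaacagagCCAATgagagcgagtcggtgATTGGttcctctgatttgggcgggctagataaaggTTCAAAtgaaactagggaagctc
Kif11: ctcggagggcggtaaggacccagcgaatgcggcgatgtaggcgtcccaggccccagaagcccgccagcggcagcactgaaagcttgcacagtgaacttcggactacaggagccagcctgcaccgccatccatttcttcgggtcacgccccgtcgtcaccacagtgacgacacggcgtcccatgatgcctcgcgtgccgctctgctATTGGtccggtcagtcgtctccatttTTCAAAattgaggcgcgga
In Mcm5, matches to 2 E2F sites on opposite strands overlap in 1 run of capitals, and in Mcm6 the same arrangement is followed by an E2F match closer to the start. The last CHR match of Cdc20, Top2a and Kif11 began 18, 23 and 19 bases before the start. The CCAAT match nearest to it upstream began 53, 58 and 45 bases before the start. These distances are from RefSeq's start and do not hold for the whole set. The last CHR match also lay before the start in Cdk1, Mki67, Prc1 and Ube2c. It lay after the start in Aurka, Bub1, Bub1b, Ccnb2, Cenpf, Plk1 and Ttk. A match to these letters is not a test of binding.

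The libraries matched their labels, but each Sox2 KO library was deeper than each Sox2 WT library. The reads recovered in genes numbered 19800131 to 23628232 in Sox2 WT and 25766472 to 28744064 in Sox2 KO. Sox2 WT replicate 1 had the fewest and Sox2 KO replicate 3 the most. Between 20180 and 20550 genes were above 0 in each. Sox2, the targeted transcription factor of stem and progenitor cells, stood at 11.1, 9.03 and 10.9 RPKM (reads scaled to gene length and library size) in the Sox2 WT libraries, replicates 1 to 3 in order, and at 0.342, 0.21 and 0.42 RPKM in the Sox2 KO libraries. An exact two-sided permutation test gave p = 0.1, the smallest that 3 against 3 allows. Pyloric markers were abundant, led by Tff1 and Gkn2. Markers of the squamous forestomach summed to 1.11 to 3.28 RPKM in Sox2 WT and 1.75 to 3.23 RPKM in Sox2 KO, led by Krt13 and Krt15, with Krt6a and Sprr3 at 0 in all libraries. Markers of duodenal epithelium, led by Vil1 and Apoa4 (mean 77.8 and 20.1 RPKM), summed to 125 to 148 RPKM in Sox2 WT and 122 to 140 RPKM in Sox2 KO, with Sis at 0 in all libraries. By Xist and the Y-linked gene Ddx3y, Sox2 WT replicates 2 and 3 were female, while Sox2 WT replicate 1 and all of Sox2 KO were male, so that sex and genotype were partly confounded.

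No cell cycle gene differed between Sox2 KO and Sox2 WT pylorus beyond the spread between libraries. In limma's test over all 14045 genes tested, with Benjamini-Hochberg adjustment, 0 of 34 had an adjusted p under 0.05 and 0 had an unadjusted p under 0.05. With limma's voom on recovered reads, 0 of 34 passed as well. Over all genes, 4 (0.0285%) were past the threshold and 442 had an unadjusted p under 0.05. In 0 of the 34 did the 3 Sox2 KO values lie all above or all below the 3 Sox2 WT values. Over all genes, 4.09% lay all above and 2.99% all below. The median log2 fold change (log2(RPKM + 0.5), Sox2 KO less Sox2 WT) was 0.02 for the 12 replication genes and 0.12 for the 22 mitotic genes, against 0.02 over all genes tested. Signs were mixed among the replication genes, with 7 positive and 5 negative, from −0.11 for Ccne2 to 0.09 for Rrm1. Among the mitotic genes 21 were positive, up to 0.23 for Ube2c, and only Aurka was negative at −0.02. Over all 14045 genes tested, 7980 were positive. The smallest unadjusted p was that of the kinetochore motor Cenpe, at 0.156 (log2 fold change 0.18, SE 0.115). The 95% intervals of the replication genes stayed between −0.74 and 0.80 and those of the mitotic genes between −0.64 and 0.87, and each of the 34 held 0.

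**Figure D1:**
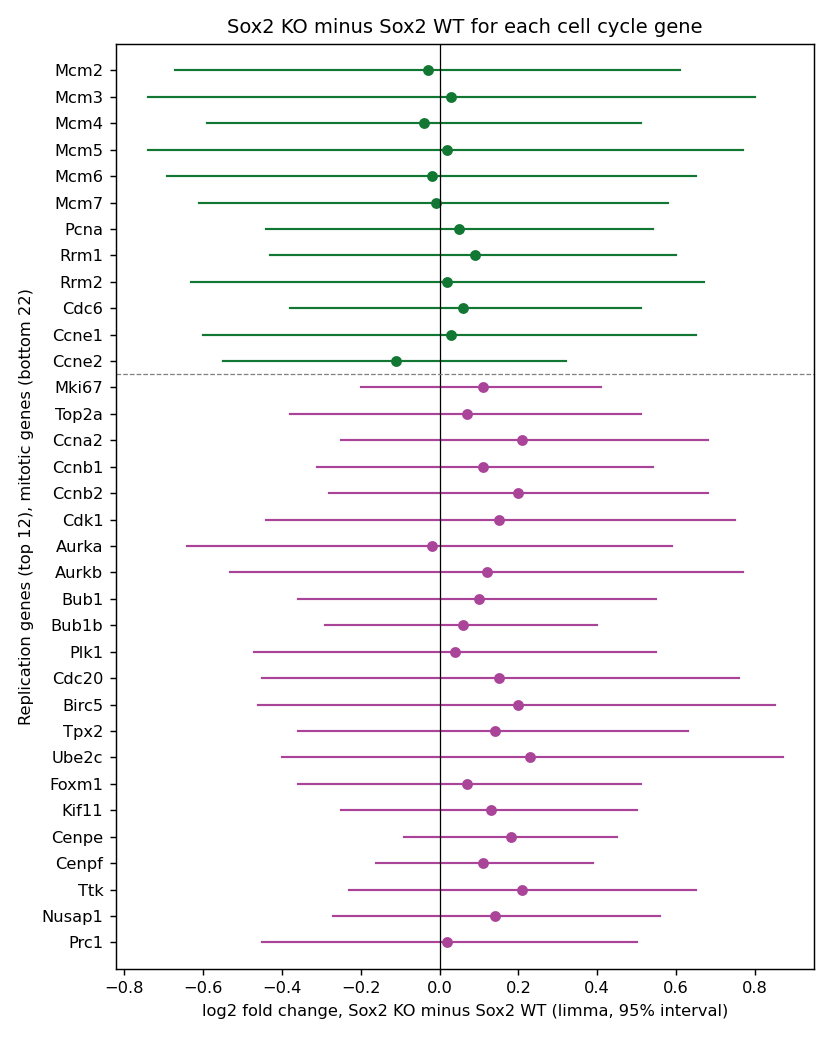
The difference between Sox2 KO and Sox2 WT is plotted for each gene as the log2 fold change (x axis, log2(RPKM + 0.5) scale) with its 95% interval from limma, 3 libraries a group. Replication genes are above the dashed line and mitotic genes below it, and the interval of each of the 34 genes crosses 0.

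These medians turned with single libraries. Without Sox2 KO replicate 3 the median was −0.29 for the replication genes, 12 of 12 negative, and −0.10 for the mitotic genes, 18 of 22 negative. Without Sox2 KO replicate 1 it was 0.20 and 0.25. With sex as a covariate, which sets the Sox2 KO libraries against the 1 male Sox2 WT library, the replication median was −0.22, 12 of 12 negative, and the mitotic median 0.08. In each of these fits 0 of the 34 genes passed the threshold.

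The MCM proteins form the ring-shaped helicase that unwinds DNA at the replication fork. Mcm6, the most abundant of the 6 per length of gene, stood at 33.7, 18.8 and 23.6 RPKM in the Sox2 WT libraries (replicates 1 to 3 in that order) and at 17.4, 24.0 and 34.5 RPKM in Sox2 KO. Mcm3 was at 20.6, 12.3 and 14.4 RPKM in Sox2 WT and at 10.6, 14.0 and 26.2 RPKM in Sox2 KO. Mcm5 was at 19.6, 11.2 and 14.5 RPKM in Sox2 WT and at 10.4, 12.9 and 24.3 RPKM in Sox2 KO. In all 3 genes the highest value was in Sox2 KO replicate 3 and the next highest in Sox2 WT replicate 1, so that the groups overlapped. Mcm5 averaged 15.1 ± 4.27 RPKM in Sox2 WT and 15.9 ± 7.40 in Sox2 KO (SD, 3 libraries each), a log2 fold change of 0.02 (SE 0.324, limma adjusted p = 1.0). Mcm2 was at 12.7, 7.81 and 9.35 RPKM in Sox2 WT and at 7.44, 8.01 and 14.5 RPKM in Sox2 KO. Mcm4 followed the same order of libraries, with 14.0 and 14.9 RPKM in Sox2 WT replicate 1 and Sox2 KO replicate 3 and 8.80 to 10.7 RPKM in the other libraries. Mcm7, the lowest of the 6, ranged from 4.60 RPKM in Sox2 KO replicate 1 to 9.68 RPKM in Sox2 KO replicate 3. Mcm7 overlaps Cops6 and Ap4m1 on the other strand, and without strand information their reads cannot be told apart.

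Pcna, the sliding clamp of DNA polymerase, was at 20.2, 15.6 and 17.5 RPKM in Sox2 WT and at 15, 16 and 25.5 RPKM in Sox2 KO. How reads shared between Pcna and its pseudogene Pcna-ps2 were counted is not stated, so both values are uncertain. Pcna-ps2 was highest in Sox2 KO replicate 3 too, at 14.5 RPKM against 8.18 to 10.1 RPKM elsewhere. Rrm1 and Rrm2 encode the large and small subunits of ribonucleotide reductase, which makes deoxynucleotides. Rrm1 was at 22.8, 17.7 and 18.6 RPKM in Sox2 WT and at 17.2, 17.7 and 29.7 RPKM in Sox2 KO. Rrm2 was at 14.4, 13.3 and 14.6 RPKM in Sox2 WT and at 10.0, 12.4 and 23.2 RPKM in Sox2 KO. Rrm2 was the 1 replication gene for which Sox2 WT replicate 1 was not the highest of its group. Cdc6, which loads the MCM ring onto origins, averaged 1.98 ± 0.404 RPKM in Sox2 WT and 2.10 ± 0.502 in Sox2 KO (SD, 3 libraries each). Both cyclin E genes were at low levels. Ccne1 was at 3.16, 2.27 and 2.84 RPKM in Sox2 WT and at 2.18, 2.13 and 4.58 RPKM in Sox2 KO. Ccne2, which overlaps Ints8 on the other strand, was at 2.31, 1.94 and 2.27 RPKM in Sox2 WT and at 1.71, 1.60 and 2.72 RPKM in Sox2 KO.

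Cyclins and the mitotic kinase Cdk1 drive entry into mitosis. Ccnb2, a B-type cyclin and the most abundant mitotic gene per length, was at 20.7, 25.5 and 25.6 RPKM in Sox2 WT and at 21.1, 26.7 and 36.7 RPKM in Sox2 KO. Ccna2, cyclin A, was at 18.4, 21.0 and 21.4 RPKM in Sox2 WT and at 18.5, 21.9 and 32.2 RPKM in Sox2 KO. For both cyclins Sox2 WT replicate 1 was the lowest of the 6 libraries, the reverse of its place for the MCM genes. Ccna2 overlaps Exosc9 on the other strand. Ccnb1, the other B-type cyclin, was far lower, at 1.73 ± 0.165 RPKM in Sox2 WT and 1.95 ± 0.571 in Sox2 KO (SD, 3 libraries each). Cdk1 was at 12.4, 11.2 and 11.8 RPKM in Sox2 WT and at 9.76, 11.2 and 20.7 RPKM in Sox2 KO. Foxm1, the transcription factor of the mitotic wave, was at 5.65, 4.81 and 5.54 RPKM in Sox2 WT and at 4.54, 5.14 and 7.58 RPKM in Sox2 KO. Its Sox2 WT values lay within the range of the Sox2 KO values. Foxm1 overlaps Tex52 and Gm44596 on its own strand.

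Genes for the exit from mitosis and for the chromosomal passenger complex were uneven among the Sox2 KO libraries. Cdc20, an activator of the anaphase-promoting complex, was at 19.8, 19.5 and 19.7 RPKM in Sox2 WT and at 16.5, 18.4 and 34.8 RPKM in Sox2 KO. Ube2c, the ubiquitin-conjugating enzyme of that complex, was at 12.9, 14.7 and 14.6 RPKM in Sox2 WT and at 12.1, 14.0 and 26.7 RPKM in Sox2 KO. Its mean was 14.1 ± 1.00 RPKM in Sox2 WT and 17.6 ± 7.95 in Sox2 KO (SD, 3 libraries each), a log2 fold change of 0.23 (SE 0.270, limma adjusted p = 1.0). For Cdc20, 2 of 3 Sox2 KO libraries lay below all 3 Sox2 WT libraries and the other above them. For Ube2c, 1 lay below, 1 within and 1 above. Cdc20 overlaps Elovl1, and Ube2c overlaps Tnnc2, each on the other strand. Birc5, survivin of the passenger complex, was at 8.03, 9.42 and 9.67 RPKM in Sox2 WT and at 7.24, 9.13 and 16.9 RPKM in Sox2 KO. Aurkb, the kinase of that complex, was at 9.91, 7.82 and 9.21 RPKM in Sox2 WT and at 7.09, 8.16 and 15.8 RPKM in Sox2 KO. Aurka, the spindle pole kinase, was at 6.49, 6.82 and 7.64 RPKM in Sox2 WT and at 4.89, 5.96 and 10.9 RPKM in Sox2 KO. Sox2 KO replicate 1 was the lowest and Sox2 KO replicate 3 the highest of the 6 libraries for both kinases.

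**Figure D2:**
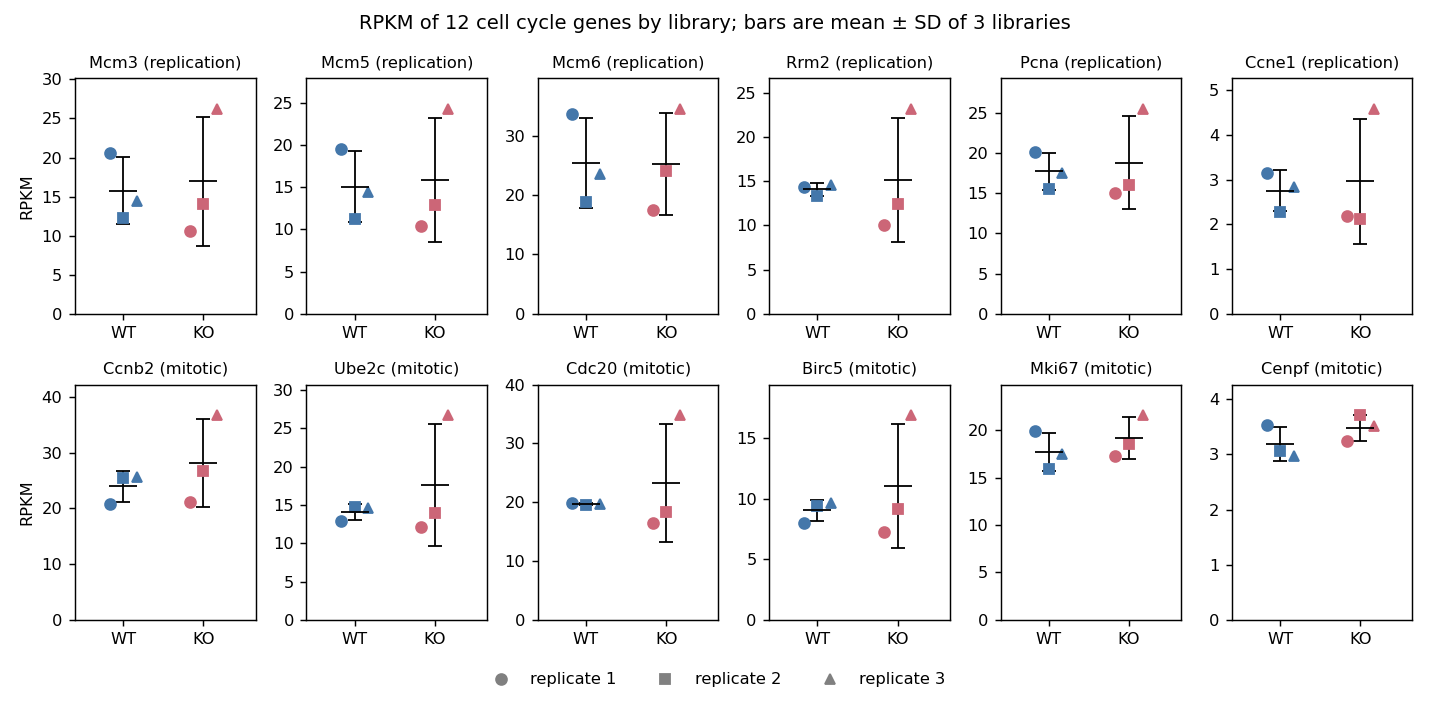
Each panel plots the RPKM of 1 gene (y axis, from 0) in the 3 Sox2 WT and 3 Sox2 KO libraries, with marker shapes for replicates 1 to 3 and bars for the mean ± SD of 3 libraries. Sox2 KO replicate 3, the red triangle, is the highest point in 11 of the 12 panels, and Cenpf is the panel where it is not.

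For the other mitotic kinases, the checkpoint genes and the spindle genes Sox2 KO replicate 3 was again the highest library, while the lowest was Sox2 KO replicate 1 or Sox2 WT replicate 2. Plk1, the polo-like kinase, was at 13.9, 11.3 and 13.1 RPKM in Sox2 WT and at 10.5, 11.3 and 18.8 RPKM in Sox2 KO. The checkpoint kinases Bub1, Bub1b and Ttk averaged 4.60 ± 0.432, 7.94 ± 0.745 and 5.47 ± 0.487 RPKM in Sox2 WT, and 5.06 ± 1.56, 8.33 ± 1.54 and 6.54 ± 1.82 RPKM in Sox2 KO (SD, 3 libraries each). Of the microtubule genes, the Sox2 KO values ran from 7.27 to 13.5 RPKM for Tpx2, from 7.73 to 11.4 for the motor Kif11, from 7.41 to 11.9 for Nusap1 and from 5.29 to 9.21 for Prc1. Their Sox2 WT values lay inside these ranges, except Kif11 in Sox2 WT replicate 2 at 7.41 RPKM. Nusap1 overlaps Oip5, and Prc1 overlaps Rccd1, each on the other strand.

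In the 4 longest mitotic genes Sox2 KO replicate 3 stood at 1.01 to 1.48 times the mean of the other 2 Sox2 KO libraries. Mki67, the proliferation antigen Ki-67, was at 19.9, 15.9 and 17.5 RPKM in Sox2 WT and at 17.3, 18.6 and 21.6 RPKM in Sox2 KO. Top2a, the topoisomerase that untangles sister chromatids, was at 16.7, 12.6 and 12.6 RPKM in Sox2 WT and at 12.5, 13 and 18.9 RPKM in Sox2 KO. Cenpe was at 4.27, 3.78 and 3.90 RPKM in Sox2 WT and at 4.17, 4.54 and 5.06 RPKM in Sox2 KO. Cenpf, a large kinetochore protein, was at 3.54, 3.06 and 2.97 RPKM in Sox2 WT and at 3.24, 3.71 and 3.51 RPKM in Sox2 KO. Cenpf was the 1 gene of the 34 whose highest value was not in Sox2 KO replicate 3.

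Sox2 KO replicate 3 was thus the highest library for 12 of 12 replication genes and 21 of 22 mitotic genes, against 27.5% of all genes tested. Its level was 1.44 to 2.13 times the mean of the other 2 Sox2 KO libraries for the replication genes (median 1.77) and 1.01 to 2.08 times for the mitotic genes (median 1.59). Sox2 KO replicate 1 was the lowest of its group for 9 of 12 and 21 of 22 genes, against 37.2% of all genes tested. The SD was larger in Sox2 KO than in Sox2 WT for 12 of 12 and 21 of 22 genes. The share over all genes tested was not computed for the SD. The values of Sox2 KO replicate 3 enter each of these SDs, so this count is not a separate result. Sox2 itself was between 0.21 and 0.42 RPKM in the 3 Sox2 KO libraries.

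In Sox2 WT replicate 1 the replication genes stood higher than the mitotic genes, a difference with no test. That library was the highest of the 3 Sox2 WT libraries for 11 of 12 replication genes and for 14 of 22 mitotic genes, against 25.9% of all genes tested. It was at 1.03 to 1.59 times the mean of the other 2 Sox2 WT libraries for the replication genes (median 1.29), above 1 in 12 of 12. For the mitotic genes the ratio ran from 0.812 for Ccnb2 to 1.33 for Top2a (median 1.08) and was below 1 in 6 of 22. It was the lowest of the Sox2 WT libraries for 5 mitotic genes, Ccna2, Ccnb2, Aurka, Birc5 and Ube2c. This library was also the only male one of its group, so that sex and library cannot be told apart within Sox2 WT.

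**Figure D3:**
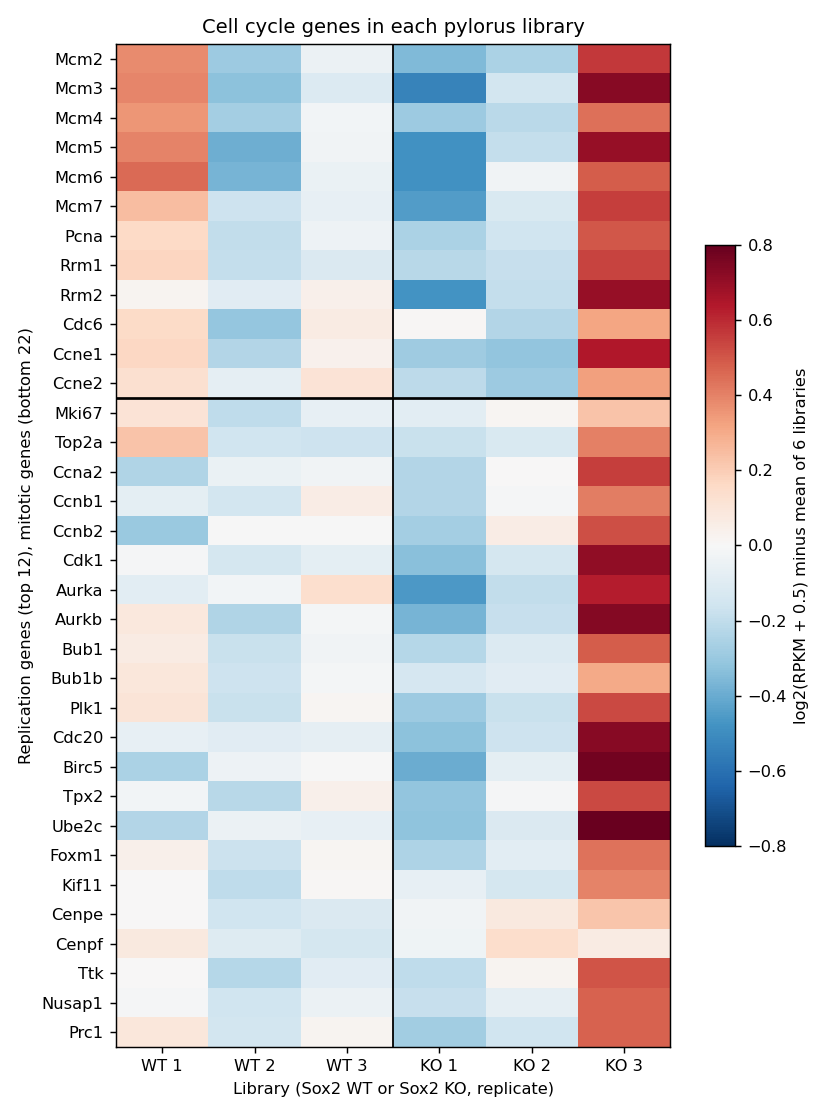
Colours show, for each gene (rows) and library (columns), log2(RPKM + 0.5) minus the gene's mean over the 6 libraries. The column of Sox2 KO replicate 3 is red in both blocks, while that of Sox2 WT replicate 1 is red for the replication genes and mixed for the mitotic genes.

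The same contrast was seen in the deviation of each library, defined as log2(RPKM + 0.5) minus the gene's mean over the 6 libraries. The median deviation of the replication genes was 0.21, −0.25 and −0.03 in the Sox2 WT libraries and −0.32, −0.19 and 0.55 in the Sox2 KO libraries, replicates 1 to 3 in order. For the mitotic genes it was 0.00, −0.16 and −0.02 in Sox2 WT and −0.24, −0.09 and 0.49 in Sox2 KO. Over all genes tested it stayed between −0.03 and 0.01. Replication genes stood 0.21 above mitotic genes in Sox2 WT replicate 1. In the other 5 libraries the replication median minus the mitotic median lay between −0.10 and 0.05. These medians have no test, because the libraries are single samples.

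Other genes of the same phases, not among the 34, were also high in Sox2 KO replicate 3, but their phases lay closer together in Sox2 WT replicate 1. A list of 44 further replication genes (origin licensing, polymerases, clamp loaders, nucleotide synthesis) had median deviations of 0.10, −0.14 and −0.02 in Sox2 WT and −0.23, −0.15 and 0.47 in Sox2 KO, and 38 of 44 were highest in Sox2 KO replicate 3. A list of 60 further mitotic genes (kinetochore, condensin, kinesins, cytokinesis) had 0.01, −0.15 and −0.04 in Sox2 WT and −0.20, −0.06 and 0.49 in Sox2 KO, and 57 of 60 were highest in Sox2 KO replicate 3. Sox2 WT replicate 1 was the highest of its group for 28 of 44 further replication genes (63.6%) and 31 of 60 further mitotic genes (51.7%). The gap between the medians of these lists was no wider in Sox2 WT replicate 1 than in Sox2 KO replicate 2. Between the groups, 0 of 44 and 0 of 60 passed limma's threshold (0 and 2 had an unadjusted p under 0.05). The median log2 fold changes were 0.04 (29 positive, 15 negative) and 0.13 (56 positive, 4 negative), against 7980 positive of 14045 genes tested. Medians of these lists without Sox2 KO replicate 3 are not given here. The most abundant were Rfc2, of the clamp loader, and Gins4, of the replicative helicase, with log2 fold changes of 0.07 and 0.13, and Bub3, of the checkpoint, and Smc4, of condensin, with 0.10 and 0.02.

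**Figure D4:**
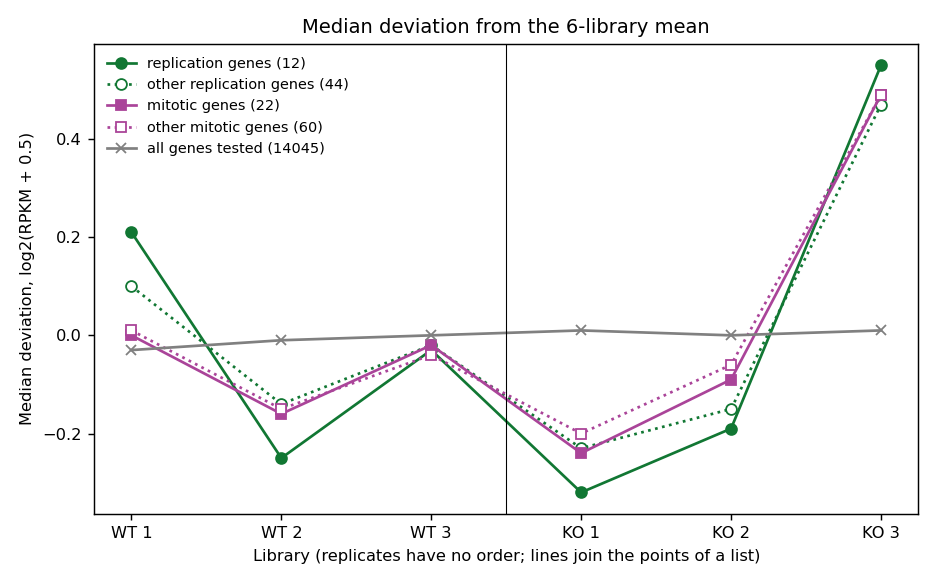
The median deviation of each list (y axis, log2 scale) is plotted by library, with filled symbols for the 12 replication and 22 mitotic genes, open symbols for the 44 and 60 other genes of the same phases and crosses for all 14045 genes tested. Both phases peak at 0.55 and 0.49 in Sox2 KO replicate 3 and part in Sox2 WT replicate 1, at 0.21 and 0.00.

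Length moved with these deviations. The length behind each RPKM, recovered from the values, correlated across all genes tested with the deviation in Sox2 KO replicate 3 (Spearman's rho −0.40, n = 14045 genes), Sox2 WT replicate 1 (0.31) and Sox2 KO replicate 1 (0.27). Across the 22 mitotic genes the values were −0.78, 0.49 and 0.65, and across the 12 replication genes −0.44, −0.01 and 0.38. Genes within a library share its RNA and depth, so these are descriptions. In Sox2 KO replicate 3 the median deviation of mitotic genes was 0.63 for the 6 under 3000 bases, 0.48 for the 11 up to 6000 bases and 0.23 for the 5 of 6000 bases or more. Over all genes tested it was 0.12, −0.02 and −0.14 in the same classes. Each library was then centred on the median of all genes in each length class, a step added after the data were seen. The medians in Sox2 KO replicate 3 were 0.54 for replication and 0.49 for mitotic genes, against 0.55 and 0.49 before. Lengths also differ within a class, and the part of length in these deviations was not tested. After centring, Sox2 KO replicate 3 was highest for 11 of 12 and 22 of 22 genes, against 22.6% of all. In Sox2 WT replicate 1 the centred medians were 0.26 and 0.03.

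**Figure D5:**
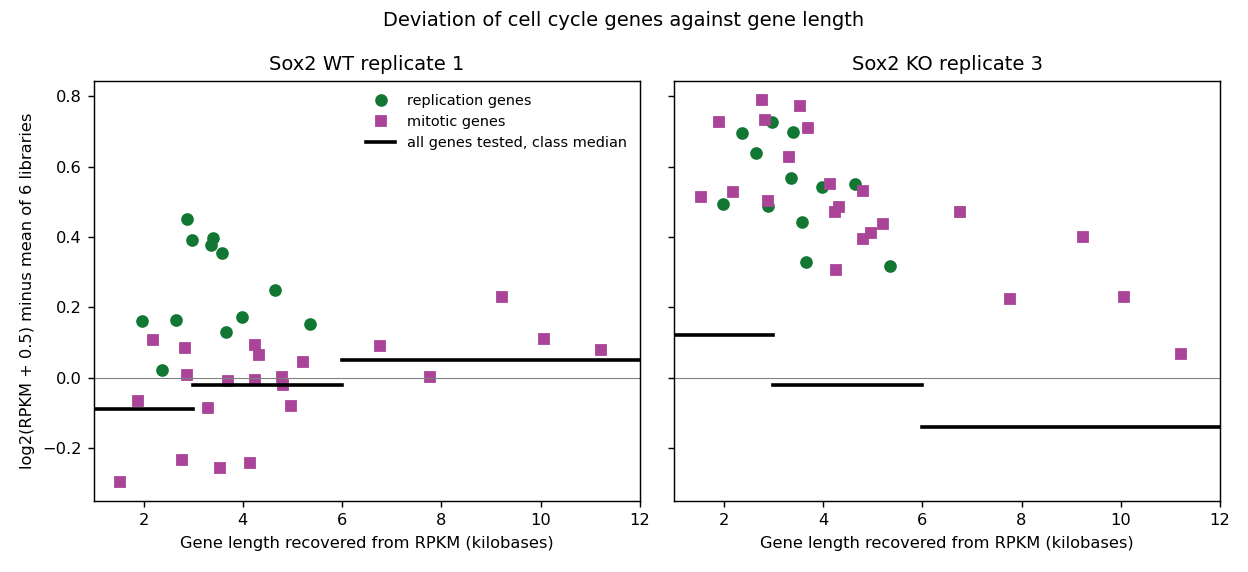
Each point is 1 gene, placed by its length in kilobases (x axis) and its deviation from the 6-library mean (y axis, log2(RPKM + 0.5)), in Sox2 WT replicate 1 (left) and Sox2 KO replicate 3 (right). Black lines are the medians of all genes tested in 3 length classes, and in Sox2 KO replicate 3 each of the 34 cell cycle genes lies above the line of its class.

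Markers of the tissue's cell types were read beside these libraries, and their part in the result was not tested. Smooth muscle markers, 10 of 10 measured and led by Acta2 and Tagln, summed to 759, 584 and 479 RPKM in Sox2 WT and 450, 655 and 714 RPKM in Sox2 KO. Their sum was highest in Sox2 WT replicate 1 and Sox2 KO replicate 3 and lowest in Sox2 KO replicate 1. These were also the highest and lowest libraries for all 6 MCM genes, but not for all 34 genes. Sox2 KO replicate 1 was the lowest library for 9 of 12 replication and 14 of 22 mitotic genes, against 2434 of 14045 genes tested. Sox2 WT replicate 1 was the second highest for 11 of 12 and 12 of 22, a rank not counted over all genes. It was the lowest library for Ccna2 and Ccnb2. Single smooth muscle markers varied. Of the 10, 7 were highest in Sox2 WT replicate 1 and 3 in Sox2 KO replicate 3, where 1 was lowest. The median deviation of these markers was −0.32, 0.18 and 0.20 in the Sox2 KO libraries. Gastric stem and progenitor markers, 12 of 13 above the filter, summed to 163 to 192 RPKM in Sox2 WT and 167 to 180 RPKM in Sox2 KO. Lymphocyte and germinal centre markers, 4 of 13 above the filter, summed to 5.03 to 6.43 RPKM in Sox2 WT and 4.79 to 6.13 RPKM in Sox2 KO, with Sox2 KO replicate 3 the lowest library. Parietal cell markers, led by Atp4b and Gif, summed to 1120, 3690 and 628 RPKM in Sox2 WT and 1940, 2140 and 1160 RPKM in Sox2 KO. Sox2 WT replicate 2 was the highest library for 7 of 7 parietal markers and Sox2 WT replicate 3 the lowest for 7 of 7. Within Sox2 WT, replicate 2 was the lowest for 12 of 12 replication and 15 of 22 mitotic genes, against 5069 of 14045 genes tested. In Sox2 WT replicate 3 the median deviation of the replication genes was −0.03. Pyloric epithelial markers summed to 113000, 104000 and 172000 RPKM in Sox2 WT and 175000, 144000 and 127000 RPKM in Sox2 KO. Within Sox2 KO this sum, led by Tff1 and Gkn2, was highest in replicate 1 and lowest in replicate 3. The 13 markers did not all share that order. Of these, 4 were highest of the 6 libraries in Sox2 KO replicate 1 and 5 in Sox2 KO replicate 3. The median deviation of this list was 0.11, 0.06 and 0.07 in the Sox2 KO libraries. Fibroblast markers summed to 441 to 585 and 497 to 543 RPKM, and endothelial markers to 27.4 to 39.4 and 31.5 to 37.6 RPKM, in Sox2 WT and Sox2 KO.

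Upstream regulators were read as lists from the same limma fit over all genes, and no list was tested as a whole. Of 6 tested inhibitors of cyclin-dependent kinases, 0 passed limma's threshold and 0 had an unadjusted p under 0.05. All 6 were positive, against 7980 of 14045 genes tested, with a median log2 fold change of 0.17. Cdkn1a, p21, was the most abundant, at 107 ± 42.8 RPKM in Sox2 WT and 112 ± 34.0 in Sox2 KO (SD, 3 libraries each; log2 fold change 0.11, SE 0.327). Cdkn1b, p27, differed by 0.13 (SE 0.123) and Cdkn1c, p57, by 0.53 (SE 0.28). Cdkn2b, Cdkn2c and Cdkn2d differed by 0.23, 0.16 and 0.17. Cdkn2a was below the filter. Among 12 G1 cyclins, their kinases and related genes, 0 passed and 1 had an unadjusted p under 0.05. Of these 12, 9 were negative, against 6065 of 14045 genes tested, and the median was −0.04. Ccng1 and Cdk4, the most abundant, differed by 0.08 and 0.14. Ccnd2, a D-type cyclin named after its values were seen, was at 42.2, 33.1 and 30.3 RPKM in Sox2 WT and at 19.6, 16.6 and 20.5 RPKM in Sox2 KO. Its groups did not overlap, but its log2 fold change of −0.87 (SE 0.151) had an adjusted p of 0.281 in limma. Of 18 E2F, retinoblastoma and DREAM genes 0 passed and 0 had an unadjusted p under 0.05, with a median of −0.02, and 11 of 18 were highest in Sox2 KO replicate 3. E2f4 and Tfdp1, its most abundant members, differed by −0.02 and −0.01. Of 15 genes of the S and G2 checkpoints 0 passed and 1 had an unadjusted p under 0.05, with a median of 0.04, and Topbp1 and Wee1 differed by 0.04 and −0.13.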

How the data were processed

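Gene expression was measured by RNA sequencing in 6 pylorus libraries. The deposited values are RPKM for 39179 genes, made by the authors. CASAVA 1.7, STAR and mm10 are named in the submitters' processing notes. Counting tool, annotation and strandedness: not given in the sources used here. Values were tested as log2(RPKM + 0.5), Sox2 KO minus Sox2 WT, with limma 3.58.1 in R 4.3.3 (variance trend, moderated variances, Benjamini-Hochberg adjustment, threshold 0.05) over the 14045 genes whose mean RPKM reached 0.5, keeping the highest row of a shared symbol. This scale understates changes of low genes.

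Whole reads came out for 23534 of 23538 genes above 0 (99.98%, tolerance 1e-05 reads) (1 length a gene, 1 denominator a library) and were tested with limma's voom as an alternative, which called 2 genes higher and 6 lower. The reads recovered per member ranged from 164 to 7376 per library. Counting error and the spread between libraries were not separated.

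Gene coordinates came from GENCODE on GRCm38. All 34 members may be named. From each pathway list the text names genes past the threshold or, with none, the 2 most abundant, every tested inhibitor of cyclin-dependent kinases, and from marker lists the 2 most abundant and those at 0. The members and lists were chosen with earlier results of these data known. Tried as alternatives were 2 other pseudocounts, 2 other filters, 2 rescalings, 2 variance settings, the replicate number as a block, sex as a covariate, voom, each library left out in turn and, added after the data were seen, length-class centring.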

Additional observations from a re-analysis of the deposited data

How the results depend on the processing

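No cell cycle gene passed the threshold in the analysis reported or in any of the 18 alternatives. Leaving out each library in turn moved the replication median between −0.29 and 0.20 and the mitotic median between −0.10 and 0.25. The members had 164 to 7376 reads per library, and counting error was not separated from the spread between libraries. The log2 fold changes that changed sign lay between −0.11 and 0.23 in the analysis reported.

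Over all genes, 2 were higher and 2 lower in Sox2 KO. Genes higher numbered 1 with no filter on low values, with median-of-ratios rescaling, with quantile normalization, with no variance trend and with length-class centring, and 0 with sex as a covariate. Genes lower numbered 1 with sex as a covariate and 6 with voom on recovered reads. Leaving out a library gave 0 to 5 genes higher and 1 to 4 lower. With the replicate number as a block, 0 genes were higher and 1 lower. The labels state no pairing, and libraries of the same number did not deviate together (correlations 0.00879, 0.097 and −0.074). In this balanced design a block cannot change a log2 fold change. The medians of 0.02 for replication and 0.12 for mitotic genes were therefore the same by construction.

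The log2 fold change turned sign with sex as a covariate for Mcm3 −0.38, Mcm5 −0.39, Pcna −0.13, Rrm1 −0.13, Rrm2 −0.01, Cdc6 −0.12, Ccne1 −0.15, Mki67 −0.06, Top2a −0.20, Aurka 0.07, Aurkb −0.02, Bub1 −0.02, Bub1b −0.06, Plk1 −0.09, Foxm1 −0.01, Cenpf −0.02 and Prc1 −0.08. It turned with quantile normalization for Mcm3 −0.01, Mcm5 −0.02, Rrm2 −0.02 and Plk1 0.00, with median-of-ratios rescaling for Mcm5 −0.01 and Rrm2 0.00, and with length-class centring for Mcm3 −0.04, Pcna −0.02, Rrm2 −0.05, Ccne1 −0.04 and Plk1 −0.03. Leaving out a library in turn gave log2 fold changes of Mcm2 −0.32 to 0.15, Mcm3 −0.32 to 0.31, Mcm4 −0.27 to 0.13, Mcm5 −0.33 to 0.26, Mcm6 −0.27 to 0.22, Mcm7 −0.29 to 0.21, Pcna −0.18 to 0.19, Rrm1 −0.16 to 0.22, Rrm2 −0.33 to 0.26, Cdc6 −0.08 to 0.19, Ccne1 −0.29 to 0.19, Ccne2 −0.31 to 0.00, Top2a −0.12 to 0.20, Ccna2 −0.01 to 0.38, Ccnb1 −0.07 to 0.26, Ccnb2 −0.01 to 0.39, Cdk1 −0.16 to 0.36. It also gave Aurka −0.34 to 0.20, Aurkb −0.22 to 0.33, Bub1 −0.12 to 0.23, Bub1b −0.08 to 0.14, Plk1 −0.22 to 0.19, Cdc20 −0.17 to 0.36, Birc5 −0.14 to 0.44, Tpx2 −0.09 to 0.33, Ube2c −0.10 to 0.45, Foxm1 −0.13 to 0.21, Kif11 −0.04 to 0.23, Nusap1 −0.05 to 0.27 and Prc1 −0.20 to 0.17. The cause of these changes was not tested.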
